A study of Mus musculus with 12 samples.

Results

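The genes described here are *Ctla2a*, *Ctla2b*, *Ttc9*, *Adh6b*, *Tmem255a*, *C130074G19Rik* and *AU021092*, 7 of the 45664 rows of a table of counts from embryonic mouse hearts. They were chosen by measured values of these same hearts: they lie away from the *Ino80* region and their levels in hearts with disrupted endothelial *Ino80* (KO) differed from those in wild-type (WT) hearts in the same direction at both stages examined. The differences between KO and WT that chose them are therefore given as a description, without p-values, and the calls that these contrasts gave are only counted. All 7 passed the filter on low counts that left 20691 genes. Bulk RNA of whole hearts was sequenced in 12 libraries, 1 per embryo, with 3 KO and 3 WT embryos at embryonic stage E13.5 and 3 of each at E14.5. The KO embryos carried an *Ino80* disruption that the labels call endothelial and tie to Tie2, a receptor gene active in endothelial cells and, as background, also in endocardial and many blood cells. The WT embryos were labelled only as wild type, and the sources used here give neither the strain, nor which part of *Ino80* was deleted, nor whether WT embryos carried a driver or a floxed allele. All E13.5 embryos came from litter 1, and the E14.5 embryos came from litter 2 (KO replicates 2 and 4, WT replicates 7 and 8) and litter 3 (KO replicate 1, WT replicate 7.2). Embryos are named by the replicate numbers of their labels.

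INO80 is a chromatin remodeller, a multi-subunit ATPase that moves and edits nucleosomes. The 7 genes are not known as a pathway, and for some of them little is known. *Ctla2a* and *Ctla2b* encode small proteins that resemble the propeptide of cysteine cathepsins. CTLA-2α inhibits cathepsin L. *Adh6b* belongs to the alcohol dehydrogenase family, zinc enzymes that oxidise alcohols such as retinol and ethanol. *Ttc9* encodes a protein with tetratricopeptide repeats, a fold that binds other proteins, and *Tmem255a* encodes a membrane-spanning protein. *C130074G19Rik* and *AU021092* are annotated as protein-coding and have no role stated here.

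*Ctla2a* and *Ctla2b* are closely related neighbours, and their promoter sequences are shown because both genes stood higher in KO hearts and lie side by side. Both lie on the minus strand of chromosome 13 in GRCm38, 36.7 kb apart. The windows run 5′ to 3′ from 250 bases before to 50 bases after the RefSeq start (GRCm38.p6), at chr13:60936576-60936875 for *Ctla2a* and chr13:60897398-60897697 for *Ctla2b*. Capitals mark the bases that differ between the windows when they are aligned.
Ctla2a: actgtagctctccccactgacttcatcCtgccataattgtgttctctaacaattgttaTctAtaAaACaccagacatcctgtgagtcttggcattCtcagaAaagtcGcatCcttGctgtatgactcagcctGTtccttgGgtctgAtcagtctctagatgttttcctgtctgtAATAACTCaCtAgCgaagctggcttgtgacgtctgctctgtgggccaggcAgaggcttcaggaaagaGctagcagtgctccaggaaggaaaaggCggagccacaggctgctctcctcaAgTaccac
Ctla2b: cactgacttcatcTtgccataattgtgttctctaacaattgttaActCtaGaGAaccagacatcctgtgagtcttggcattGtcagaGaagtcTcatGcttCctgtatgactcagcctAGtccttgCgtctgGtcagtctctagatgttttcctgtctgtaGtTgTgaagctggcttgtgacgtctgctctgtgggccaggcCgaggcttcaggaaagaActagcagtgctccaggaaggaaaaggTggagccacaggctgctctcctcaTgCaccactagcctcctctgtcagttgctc
Of 286 aligned positions 255 were identical (89.2%), 23 were substituted and 8 were gaps. RefSeq gave 6 promoter windows for 5 of the 7 genes, since *Ctla2a* has a second start, whose window is not shown. Of 6 motifs searched on both strands, TATAAA was found in *Ctla2a*, 190 bases before the start shown and 249 bases before the other. It was not found in the *Ctla2b* window, where some of its letters are substituted. TATAAA occurs in 13.6% of 32851 promoter windows of this length. The GC-box core GGGCGG (35.7% of all windows) was found in those of *Ttc9* and *C130074G19Rik*. CCAAT (37.4%) was found in that of *Tmem255a*, and CCGGAAG (8.86%) in that of *Ttc9*. GAAANNGAA (8.56%) and GCCATNTT (6.05%) were found in none of the 5 genes' windows. These are matches of letters, and no overlap between the motifs was found.

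The libraries held 46556032 to 182545647 counts. *Ino80* itself averaged 29.6 ± 0.0252 counts scaled to library size (CPM of edgeR, hereafter CPM) in KO hearts and 33.7 ± 2.92 CPM in WT hearts at E13.5, and 29.5 ± 2.45 CPM in KO and 32.0 ± 1.61 CPM in WT hearts at E14.5 (SD, n = 3 each). At E13.5 every KO heart was below the lowest WT heart (30.7 CPM). At E14.5 the KO hearts (27 to 31.9 CPM) overlapped the WT hearts (30.8 to 33.9 CPM). The *Ino80* count covers the whole gene, and the hearts also hold many cells outside the Tie2 lineage. What part either has in these levels was not tested. Cardiomyocyte markers were high in every library, with 10 of 10 genes measured. The liver markers summed to at most 4.44 CPM, and the lung epithelial markers to at most 0.725 CPM. Of the 16 macrophage and leukocyte markers, all measured, the summed level was 45.3 to 96.7 CPM in E13.5 KO hearts and 135 to 148 CPM in E13.5 WT hearts. At E14.5 it was 46.5 CPM in KO replicate 2, 160 CPM in KO replicate 4 and 129 CPM in KO replicate 1, against 118 to 127 CPM in WT hearts. All 16 lay below 0 in KO against WT averaged over stages, but 0 were called there or at either stage. The 16 pan-endothelial markers summed to 1280 to 1300 CPM in E13.5 KO and 1330 to 1400 CPM in E13.5 WT hearts, and to 1380 to 1550 CPM in E14.5 KO and 1210 to 1420 CPM in E14.5 WT hearts. Of these 16, 1 was called higher and 2 lower in KO hearts averaged over stages, while 9 lay above 0 and 7 below. *Pecam1*, one of those called lower, averaged 93 CPM in E13.5 KO and 143 CPM in E13.5 WT hearts. *Eng*, another of the 16, had a higher mean CPM in KO than in WT hearts at both stages. Of 7 tested mast cell markers 1 was called higher and 2 lower, while 4 lay above 0 and 3 below. *Cpa3*, a mast cell protease gene called lower, averaged 0.28 CPM in E13.5 KO and 1.76 CPM in E13.5 WT hearts. *Kit*, another of these markers, averaged 31.4 CPM in E14.5 KO and 19.2 CPM in E14.5 WT hearts. The mast cell markers summed to 45.5 to 50.5 CPM in E13.5 KO and 41 to 45.5 CPM in E13.5 WT hearts. At E14.5 they summed to 49.2 to 55.2 CPM in KO and 36.1 to 45.4 CPM in WT hearts. Most of each sum came from *Kit* and *Gata2*, so it says little of the scarcer markers. In E14.5 hearts *Cpa3* averaged 0.63 CPM in KO and 4.12 CPM in WT. *Cma1* averaged 0.431 CPM in KO and 1.91 CPM in WT, and *Tpsb2* 0.0205 and 1.17 CPM. *Hdc* (5.52 and 3.66 CPM) and *Mcpt4* (0.384 and 0.284 CPM) had the higher mean in KO hearts. Erythroid markers summed to 5850 to 10100 CPM in E13.5 KO and 6920 to 12100 CPM in E13.5 WT hearts, and to 4910 to 42000 CPM in E14.5 KO and 11800 to 18400 CPM in E14.5 WT hearts. These were named after their values were seen, and their part in the differences below was not tested. Replicate 5 of the E13.5 KO hearts and replicate 2 of the E14.5 KO hearts stood apart by holding the fewest macrophage and leukocyte transcripts of their groups. The litter 3 embryos held the most erythroid transcripts of their E14.5 groups (42000 CPM in KO replicate 1, 18400 CPM in WT replicate 7.2). Results were also computed without these libraries. In bulk samples, fewer cells of a type and less RNA per cell cannot be told apart.

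*Ctla2a* lies at chr13:60934155-60936625. It measured 50.5, 48.4 and 54.9 CPM in E13.5 KO replicates 3, 5 and 7, against 22.3, 23.0 and 30.6 CPM in E13.5 WT replicates 1, 4 and 2. At E14.5 it measured 65.6, 47.7 and 54.4 CPM in KO replicates 2, 4 and 1, against 22.3, 24.7 and 25.6 CPM in WT replicates 8, 7 and 7.2. Every KO heart of either stage stood above every WT heart of either stage. The log2 fold change of KO over WT was 1.02 ± 0.13 (SE) at E13.5 and 1.21 ± 0.13 at E14.5, with a stage average of 1.12 ± 0.09, which is 2.17-fold.

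*Ctla2b* lies at chr13:60895350-60897447. It measured 8.11, 8.06 and 10.5 CPM in E13.5 KO replicates 3, 5 and 7, against 4.94, 5.46 and 6.57 CPM in WT replicates 1, 4 and 2. The E14.5 levels were 12.0, 9.66 and 9.93 CPM in KO replicates 2, 4 and 1, against 5.15, 5.17 and 7.21 CPM in WT replicates 8, 7 and 7.2. All 6 KO hearts were above all 6 WT hearts here too, with the nearest pair at 8.06 and 7.21 CPM. KO over WT came to a log2 fold change of 0.66 ± 0.17 at E13.5 and 0.85 ± 0.17 at E14.5.

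The balance between the *Ctla2* pair was not used to choose the genes on its own, but it is built from their counts and is given as a description. *Ctla2b* made up 14.7 ± 1.17% of the counts of the pair in E13.5 KO hearts and 18.3 ± 0.786% in E13.5 WT hearts. It made up 15.9 ± 0.8% in E14.5 KO and 19.4 ± 2.4% in E14.5 WT hearts (SD, n = 3 each). The share was lower in every KO heart than in every WT heart, but the nearest were E14.5 KO replicate 4 at 16.8% (95% Wilson interval 15.8 to 17.9%) and E14.5 WT replicate 7 at 17.3% (15.5 to 19.2%), whose intervals overlap. These intervals cover counting error only. Stretches of 50 bases that occur in the transcripts of both genes make up 11.4% of those of *Ctla2a* and 14.8% of those of *Ctla2b*. At 100 bases the shares are 1.11% and 1.47%. The sources used here do not say how the authors counted reads that map to more than 1 place, so the level of each *Ctla2* gene is uncertain to that extent, and the annotated gene models *Gm49391*, *Gm49392* and *Gm49393*, which overlap the pair on the same strand, are not rows of the table.

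**Figure D1:**
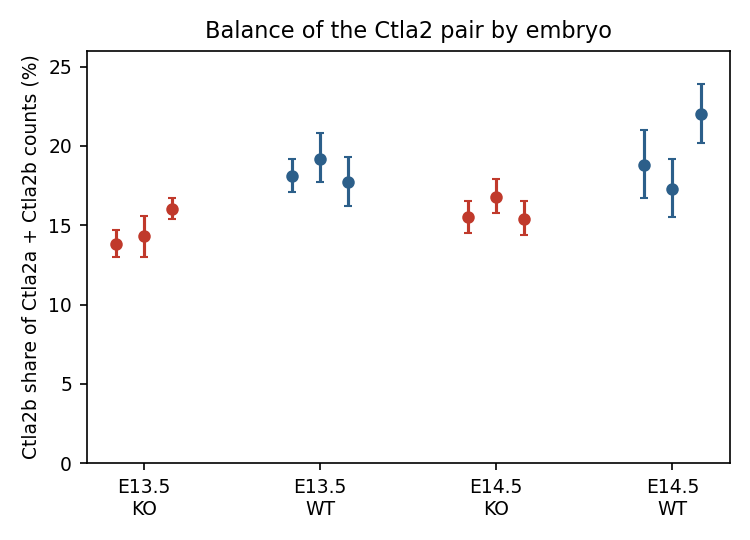
Share of Ctla2b in the summed counts of Ctla2a and Ctla2b (percent, y axis) for each embryo, grouped by stage and genotype (x axis). Points are single embryos, bars are 95% Wilson intervals, which cover counting error only; KO embryos lie between 13.8% and 16.8% and WT embryos between 17.3% and 22.0%.

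*Ttc9* lies on the plus strand at chr12:81631249-81667557. It measured 14.7, 14.7 and 16.8 CPM in E13.5 KO replicates 3, 5 and 7, against 10.7, 11.3 and 11.3 CPM in WT replicates 1, 4 and 2. The E14.5 hearts held 20.6, 17.0 and 20.1 CPM in KO replicates 2, 4 and 1, against 9.61, 10.6 and 6.90 CPM in WT replicates 8, 7 and 7.2. No KO heart overlapped a WT heart, and the lowest WT value was that of litter 3. The log2 fold change of KO over WT was 0.48 ± 0.13 at E13.5 and 1.09 ± 0.14 at E14.5. The difference of 0.62 ± 0.19 between the stages is built from the contrasts that the rule used. Of all 20691 genes tested for such a difference, *Ttc9* included, 0 passed the threshold (edgeR quasi-likelihood test). Within litters the difference of log2 levels, KO minus WT, was 0.47 in litter 1, 0.89 in litter 2 and 1.54 in litter 3, the last from 1 embryo of each genotype.

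*Adh6b* lies on the plus strand at chr3:138341775-138358861 and varied most between embryos. It measured 19.2, 31.1 and 27.9 CPM in E13.5 KO replicates 3, 5 and 7, against 7.63, 11.6 and 6.12 CPM in WT replicates 1, 4 and 2. In E14.5 hearts the levels were 30.4, 23.8 and 12.8 CPM in KO replicates 2, 4 and 1, against 2.84, 4.48 and 1.23 CPM in WT replicates 8, 7 and 7.2. The groups did not overlap, although E14.5 KO replicate 1 at 12.8 CPM was close to E13.5 WT replicate 4 at 11.6 CPM. Both embryos of litter 3 were the lowest of their E14.5 genotype groups. KO over WT came to a log2 fold change of 1.62 ± 0.45 at E13.5 and 2.98 ± 0.49 at E14.5, with a stage average of 2.30 ± 0.33, which is 4.92-fold. The biological coefficient of variation fitted to *Adh6b* was 34.2%, against 8.58% for *C130074G19Rik* and 12.0% to 18.0% for the other 5 genes.

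*Tmem255a*, on the minus strand at chrX:38196573-38252439, stood lower in KO hearts. It measured 18.7, 15.7 and 17.4 CPM in E13.5 KO replicates 3, 5 and 7, against 49.8, 45.5 and 37.8 CPM in WT replicates 1, 4 and 2. The later hearts, at E14.5, had 31.9, 35.4 and 46.8 CPM in KO replicates 2, 4 and 1, against 70.8, 65.4 and 84.4 CPM in WT replicates 8, 7 and 7.2. The genotypes did not overlap within a stage, but E14.5 KO replicate 1 stood above E13.5 WT replicate 2, and both litter 3 embryos were the highest of their groups. The log2 fold change of KO over WT was -1.36 ± 0.15 at E13.5 and -0.95 ± 0.15 at E14.5, with a stage average of -1.15 ± 0.10, which is 2.23-fold lower. The gene is X-linked, and Y-linked transcripts were present in 2 of 3 KO and 1 of 3 WT hearts at E13.5 and in 1 of 3 of each genotype at E14.5. After adding Y-linked expression as a covariate, the averaged log2 fold change was -1.16. The far end of *Tmem255a* overlaps *Zbtb33*, a gene on the opposite strand that encodes the transcription factor Kaiso. Whether counting used strand is not given, and *Zbtb33* had a log2 fold change of 0.03 (edgeR quasi-likelihood test, adjusted p = 0.847).

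*C130074G19Rik*, on the minus strand at chr1:184871926-184883218, was the least variable of the 7 genes. It measured 10.5, 9.73 and 10.4 CPM in E13.5 KO replicates 3, 5 and 7, against 19, 20.4 and 20.3 CPM in WT replicates 1, 4 and 2. At E14.5 it measured 13.49, 12.28 and 14.16 CPM in KO replicates 2, 4 and 1, against 23.8, 24.8 and 27.2 CPM in WT replicates 8, 7 and 7.2. The highest KO heart of either stage stayed below the lowest WT heart of either stage. KO over WT came to a log2 fold change of -0.96 ± 0.08 at E13.5 and -0.92 ± 0.08 at E14.5. Within litters 1, 2 and 3 the KO minus WT difference of log2 levels was -0.96, -0.91 and -0.94.

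*AU021092*, on the minus strand at chr16:5211823-5222299, had the lowest mean CPM of the 7 genes in 3 of the groups, while in E14.5 WT hearts *Adh6b* was lower. It measured 0.828, 0.987 and 1.35 CPM in E13.5 KO replicates 3, 5 and 7, against 2.59, 2.64 and 2.80 CPM in WT replicates 1, 4 and 2. At E14.5 it measured 1.09, 1.32 and 1.33 CPM in KO replicates 2, 4 and 1, against 3.80, 3.64 and 3.56 CPM in WT replicates 8, 7 and 7.2. Again no KO heart reached the level of a WT heart. The log2 fold change of KO over WT was -1.33 ± 0.20 at E13.5 and -1.56 ± 0.20 at E14.5, with a stage average of -1.44 ± 0.14, which is 2.72-fold lower.

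**Figure D2:**
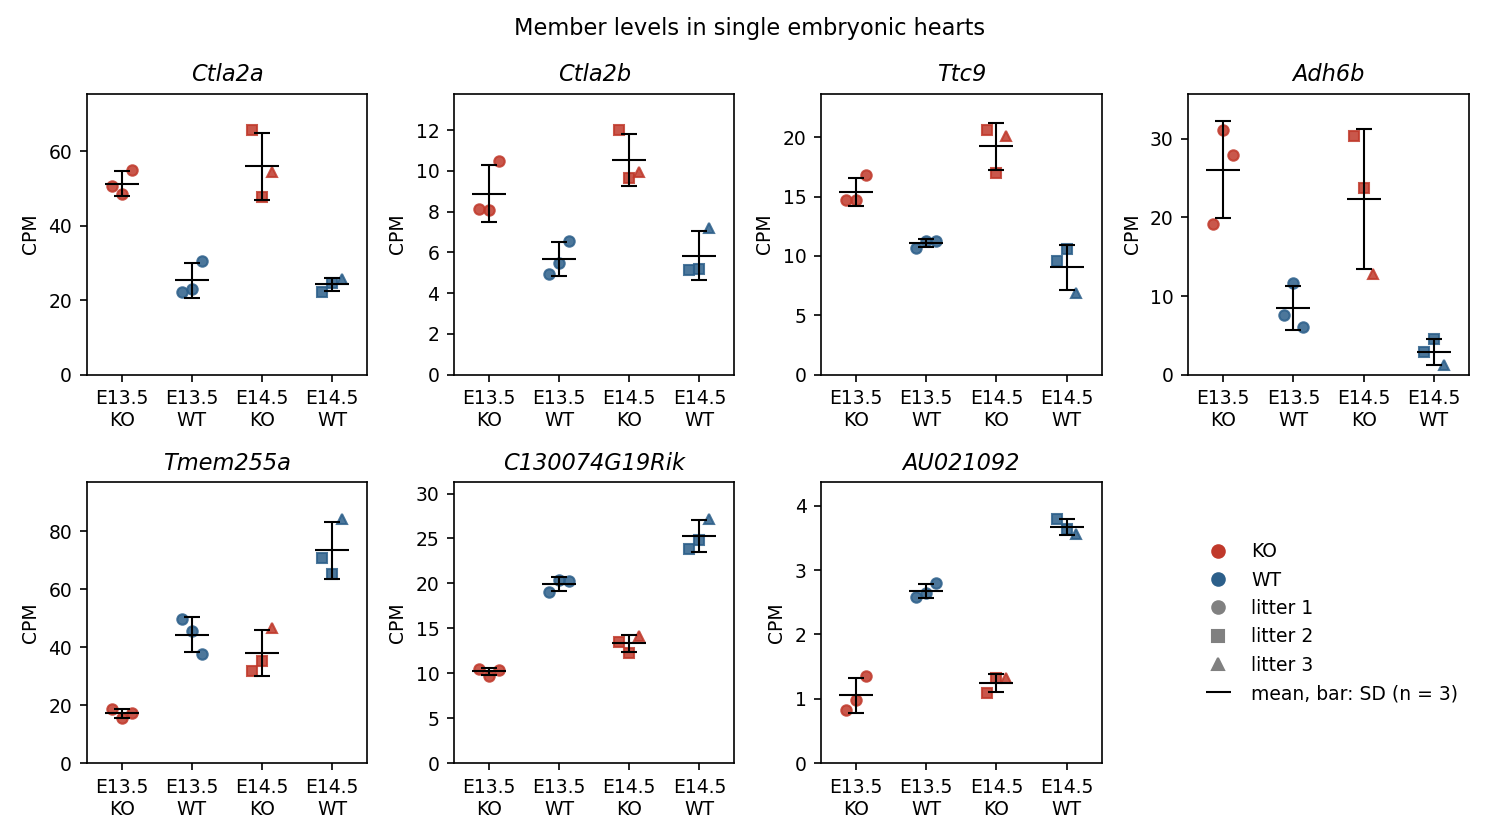
Library-scaled level (CPM, y axis, each panel on its own scale from 0) of the 7 genes in single embryonic hearts, by stage and genotype (x axis). Circles, squares and triangles are embryos of litters 1, 2 and 3, horizontal lines are means and bars are SD of 3 embryos; KO and WT do not overlap within a stage in any panel.

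Set side by side, 4 of the 7 genes stood higher and 3 lower in KO hearts. In all 7 the KO and WT hearts did not overlap within each stage, in the same direction at both, which held for 3.25% of all genes tested. In 6 of the 7, *Tmem255a* being the exception, all 6 KO hearts were separate from all 6 WT hearts, which held for 1.26% of all genes. With a threshold of adjusted p under 0.05 by edgeR's quasi-likelihood test, all 7 were among the genes called in KO against WT averaged over stages, 1.42% of those tested. At E13.5, 4 of them were among the 0.106% called, and at E14.5, 5 of them were among the 0.222% called. Since these contrasts chose the genes, nothing is read from these counts. When replicate 5 of the E13.5 KO hearts and replicate 2 of the E14.5 KO hearts were both left out, the averaged log2 fold changes were 1.07 for *Ctla2a*, 0.73 for *Ctla2b*, 0.77 for *Ttc9* and 2.09 for *Adh6b*. They were -1.07 for *Tmem255a*, -0.93 for *C130074G19Rik* and -1.38 for *AU021092*. The part that macrophage and leukocyte transcripts have in the differences was not tested.

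Across the other litters the differences varied by gene. For *Ctla2a* the KO minus WT difference of log2 levels was 1.03 in litter 1, 1.25 in litter 2 and 1.09 in litter 3. For *Ctla2b* it was 0.65, 1.06 and 0.46, and for *Adh6b* it was 1.64, 2.91 and 3.35. For *Tmem255a* it was -1.35, -1.02 and -0.85, and for *AU021092* it was -1.35, -1.62 and -1.41. No gene changed sign in any litter. Litter 1 holds all E13.5 embryos, and litters 2 and 3 hold all E14.5 embryos. These values thus restate the contrasts that chose the genes, and nothing is read from the shared sign. Litter 3 holds 1 embryo of each genotype, so its values have no replicate.

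Per kilobase of exon, the order of the levels differed between the groups. The exons of all annotated transcripts of a gene were joined, and the annotation used for counting is not given. The order between genes depends on these lengths. In E13.5 KO hearts *Ctla2a* led with 24.3 CPM per kb, ahead of *Adh6b* with 5.58 and *Ctla2b* with 5.16, which overlapped between embryos. *Tmem255a* followed with 3.85, then *C130074G19Rik* with 3.37 and *Ttc9* with 3.23, which overlapped, and *AU021092* with 0.771 CPM per kb. In E13.5 WT hearts *Ctla2a* with 12.0 and *Tmem255a* with 9.87 CPM per kb overlapped at the top, followed by *C130074G19Rik* with 6.56, *Ctla2b* with 3.28 and *Ttc9* with 2.33. *AU021092* with 1.96 and *Adh6b* with 1.81 CPM per kb were last and overlapped. *Adh6b* was thus next to the top of the levels per kb in E13.5 KO hearts and at the bottom in E13.5 WT hearts.

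At E14.5 the KO hearts again had *Ctla2a* first, with 26.5 CPM per kb, then *Tmem255a* with 8.46. *Ctla2b* with 6.11, *Adh6b* with 4.78, *C130074G19Rik* with 4.39 and *Ttc9* with 4.03 CPM per kb each overlapped the next, and *AU021092* was last with 0.911. In E14.5 WT hearts no neighbours in the order overlapped. *Tmem255a* led with 16.4 CPM per kb, ahead of *Ctla2a* with 11.5, *C130074G19Rik* with 8.32, *Ctla2b* with 3.39, *AU021092* with 2.68, *Ttc9* with 1.89 and *Adh6b* with 0.61.

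The comparison of E14.5 with E13.5, averaged over the genotypes, did not enter the choice of the genes and was tested. Its test uses the same spread within groups as the contrasts that chose the genes. A choice that favours genes of low spread can thus also favour calls here. *Tmem255a* and *C130074G19Rik* were higher at E14.5, and the other 5 genes did not pass the threshold. *Tmem255a* had a log2 fold change of 0.93 ± 0.10 (edgeR quasi-likelihood test, adjusted p = 0.000639), 1.91-fold, and *C130074G19Rik* one of 0.36 ± 0.06 (adjusted p = 0.00213), 1.29-fold. Of all genes tested, 17.2% passed in either direction and 8.26% were higher at E14.5, so 2 of 7 is set against a background of that size. Without the 2 KO libraries that stood apart the values were 0.95 for *Tmem255a* (adjusted p = 0.00344) and 0.34 for *C130074G19Rik* (adjusted p = 0.0118), and without litter 3 they were 0.78 (adjusted p = 0.000713) and 0.31 (adjusted p = 0.00927). Stage is confounded with litter, since all E13.5 embryos are of litter 1, and the 2 cannot be told apart.

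For *Tmem255a* the log2 difference between the stages, E14.5 over E13.5, was 1.13 in KO hearts and 0.73 in WT hearts. For *C130074G19Rik* it was 0.38 in KO and 0.35 in WT hearts. Both genes, lower in KO hearts, were thus higher at the later stage in both genotypes. *AU021092*, the third of the genes lower in KO hearts, had a stage log2 fold change of 0.34 ± 0.14 (adjusted p = 0.11), with 0.23 in KO and 0.45 in WT hearts. In *AU021092* the E14.5 WT hearts (3.56 to 3.80 CPM) did not overlap the E13.5 WT hearts (2.59 to 2.80 CPM), whereas the KO hearts of the stages overlapped.

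Among the genes higher in KO hearts, *Ctla2a* had a stage log2 fold change of 0.03 ± 0.09 (adjusted p = 0.844) and *Ctla2b* of 0.15 ± 0.12 (adjusted p = 0.404). That of *Ttc9* was 0.01 ± 0.09 (adjusted p = 0.947), with 0.32 in KO and -0.30 in WT hearts. *Adh6b* had -0.90 ± 0.32 (adjusted p = 0.0844), with -0.22 in KO and -1.58 in WT hearts. The *Adh6b* adjusted p was 0.0383 with DESeq2 and 0.0459 without E14.5 WT replicate 7, whereas its log2 fold change was -0.58 with the litter block (adjusted p = 0.147) and -0.58 without litter 3 (adjusted p = 0.156). That of *AU021092* was 0.0464 without E13.5 KO replicate 7.

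**Figure D3:**
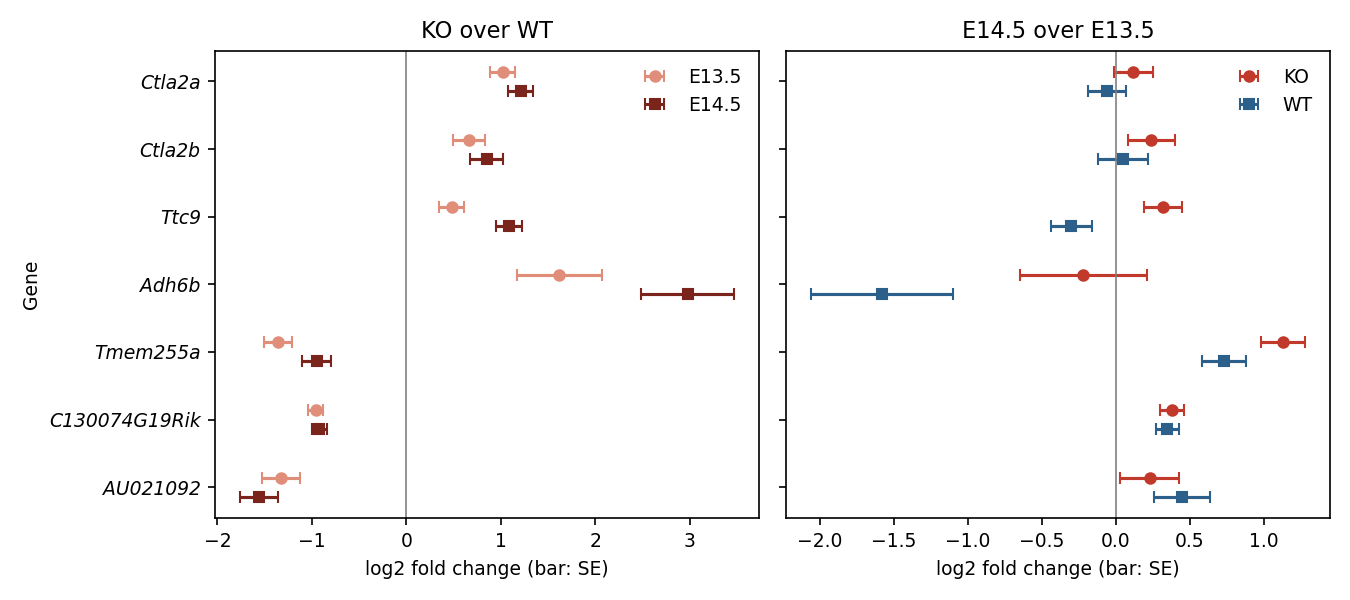
Log2 fold changes (x axes) of the 7 genes (y axis), KO over WT at each stage on the left and E14.5 over E13.5 in each genotype on the right, with bars of 1 SE from the model over 12 libraries. The left panel shows the values that chose the genes; on the right Tmem255a and C130074G19Rik lie above 0 in both genotypes and Adh6b is at -1.58 in WT hearts.

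The lists of relatives of the 7 genes held cysteine cathepsins and their inhibitors, genes named alcohol dehydrogenases, the TTC9 family and *Tmem255b*. Of their 24 genes 19 were tested. In KO against WT averaged over stages, 1 was higher and 0 were lower, against 1.42% of all genes. That gene was *Cst6*, which encodes the cysteine protease inhibitor cystatin E/M. *Cst6* measured 0.365 ± 0.0944 CPM in E13.5 KO and 0.177 ± 0.0431 CPM in E13.5 WT hearts, and 0.386 ± 0.120 CPM in E14.5 KO and 0.116 ± 0.0531 CPM in E14.5 WT hearts (SD, n = 3 each). Its log2 fold change was 1.37 ± 0.31 (edgeR quasi-likelihood test, adjusted p = 0.0477). The call was lost when any of 11 of the 12 libraries was left out, with the litter block (adjusted p = 0.0509), without litter 3 (adjusted p = 0.123) and without the 2 KO libraries that stood apart (adjusted p = 0.117).

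Of the 14 tested genes in the list of cathepsins and their inhibitors, 7 lay above 0 and 7 below. Their median log2 fold change was -0.01, against 0 over all genes. The list counts the legumain gene *Lgmn* and leaves out the cathepsin gene *Ctsj*, which is described with the neighbours below. *Ctsl*, which encodes cathepsin L, the protease that CTLA-2α inhibits, had 0.13 ± 0.06 (adjusted p = 0.337) in KO over WT. Its level was 233 ± 3.87 CPM in E13.5 KO and 227 ± 20.7 CPM in E13.5 WT hearts, and 218 ± 10.7 CPM in E14.5 KO and 187 ± 19.7 CPM in E14.5 WT hearts. By stage, *Lgmn*, the asparaginyl endopeptidase legumain, was lower at E14.5 with a log2 fold change of -0.32 (adjusted p = 0.00485). *Ctsl* was lower too, with -0.19 (adjusted p = 0.0459). That call was lost when any of 8 of the 12 libraries was left out, with the litter block (adjusted p = 0.18), without litter 3 (adjusted p = 0.132) and without the 2 KO libraries (adjusted p = 0.0806).

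Of the genes tested, those nearest to *Adh6b* on either side are *Adh1* and *Adh5*, alcohol dehydrogenase genes of the same cluster on chromosome 3. *Adh1*, of the class active on retinol and ethanol, had a log2 fold change of 0.28 ± 0.24 (adjusted p = 0.627) in KO over WT. *Adh5*, the formaldehyde-detoxifying class, had 0.04 ± 0.05 (adjusted p = 0.703). Neither passed the test, and *Adh4*, *Adh6a* and *Adh7* did not pass the filter on low counts. *Adhfe1*, put in the list by its name, was higher at E14.5 with a log2 fold change of 1.57 (adjusted p = 0.00491).

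*Ttc9c* had a log2 fold change of 0.02 ± 0.07 (adjusted p = 0.915) in KO over WT, and *Ttc9b* was too low to test. *Tmem255b*, the paralogue of *Tmem255a*, was scarce. It measured 0.0579 ± 0.0369 CPM in E13.5 KO and 0.125 ± 0.0896 CPM in E13.5 WT hearts, and 0.217 ± 0.175 CPM in E14.5 KO and 0.677 ± 0.230 CPM in E14.5 WT hearts (SD, n = 3 each). At E14.5 no KO heart reached a WT heart (at most 0.413 CPM, against at least 0.449 CPM), whereas the genotypes overlapped at E13.5. Its averaged log2 fold change of -1.22 ± 0.52 did not pass (adjusted p = 0.294). By stage *Tmem255b* was higher at E14.5, by 2.12 on the log2 scale (adjusted p = 0.0146), which was 1.61 with the litter block (adjusted p = 0.0817) and 1.56 without litter 3 (adjusted p = 0.102).

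The genes around the 7 were examined within 200 kb on each side. Of 33 tested neighbours 2 passed the test of KO against WT averaged over stages (6.06%, against 1.42% of all genes), and 17 lay below 0. Both lie at the *Ctla2* pair. *4930486L24Rik*, 30.9 kb from *Ctla2b*, measured 1.24 ± 0.103 CPM in E13.5 KO and 0.602 ± 0.220 CPM in E13.5 WT hearts. At E14.5 it measured 1.37 ± 0.608 CPM in KO and 0.578 ± 0.134 CPM in WT hearts (SD, n = 3 each). Its log2 fold change was 1.16 ± 0.25 (adjusted p = 0.0367), and the call was lost when any of 9 of the 12 libraries was left out, without litter 3 (adjusted p = 0.0776) and without the 2 KO libraries (adjusted p = 0.148). *Dapk1*, which encodes a death-associated protein kinase and was named after its value was seen, lies 171 kb from *Ctla2a* and had a log2 fold change of 0.27 ± 0.06 (adjusted p = 0.0488). That call was lost when any of 11 of the 12 libraries was left out, with the Y-linked covariate (adjusted p = 0.0521), without litter 3 (adjusted p = 0.0966) and without the 2 KO libraries (adjusted p = 0.17).

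The remaining tested neighbour of the pair was *Ctsj*, a rodent cathepsin gene known from placenta, 63.6 kb from *Ctla2a*. It had 30, 26 and 39 counts in E13.5 KO replicates 3, 5 and 7, against 16, 9 and 0 in WT replicates 1, 4 and 2. At E14.5 it had 4, 5 and 6 counts in KO replicates 2, 4 and 1, and 0 in each WT heart. Counts were thus higher in each KO heart than in each WT heart of its stage, at a level that did not pass the test (adjusted p = 0.0596), and that passed it with no filter on low counts (adjusted p = 0.0293), with the Y-linked covariate (adjusted p = 0.0364) and without E13.5 WT replicate 2 (adjusted p = 0.0414). No fold is given, since a group is at 0.

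None of the named neighbours of the other genes passed in the model over 12 libraries. *Map3k9*, a mixed-lineage kinase gene beside *Ttc9*, had a log2 fold change of 0.57 ± 0.16 (adjusted p = 0.0991, and 0.013 with DESeq2), and *Med6*, a Mediator subunit gene on its other side, had -0.02 (adjusted p = 0.87). Beside *C130074G19Rik*, the kinase gene *Mark1* had -0.08 (adjusted p = 0.575) and the homeobox gene *Hlx* had 0.42 (adjusted p = 0.272). Without E14.5 KO replicate 4 *Hlx* was at 0.54 and passed (adjusted p = 0.0481), and without E14.5 KO replicate 1 it was at 0.25 (adjusted p = 0.355). Beside *AU021092*, *Nagpa*, an enzyme gene of lysosomal targeting, had -0.15 (adjusted p = 0.454) and the glycosylation gene *Alg1* had 0.06 (adjusted p = 0.774). Next to *Tmem255a*, the pseudogene *Zfp36l1-ps* had -0.17 (adjusted p = 0.532) and *Atp1b4* had -0.39 (adjusted p = 0.786).

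**Figure D4:**
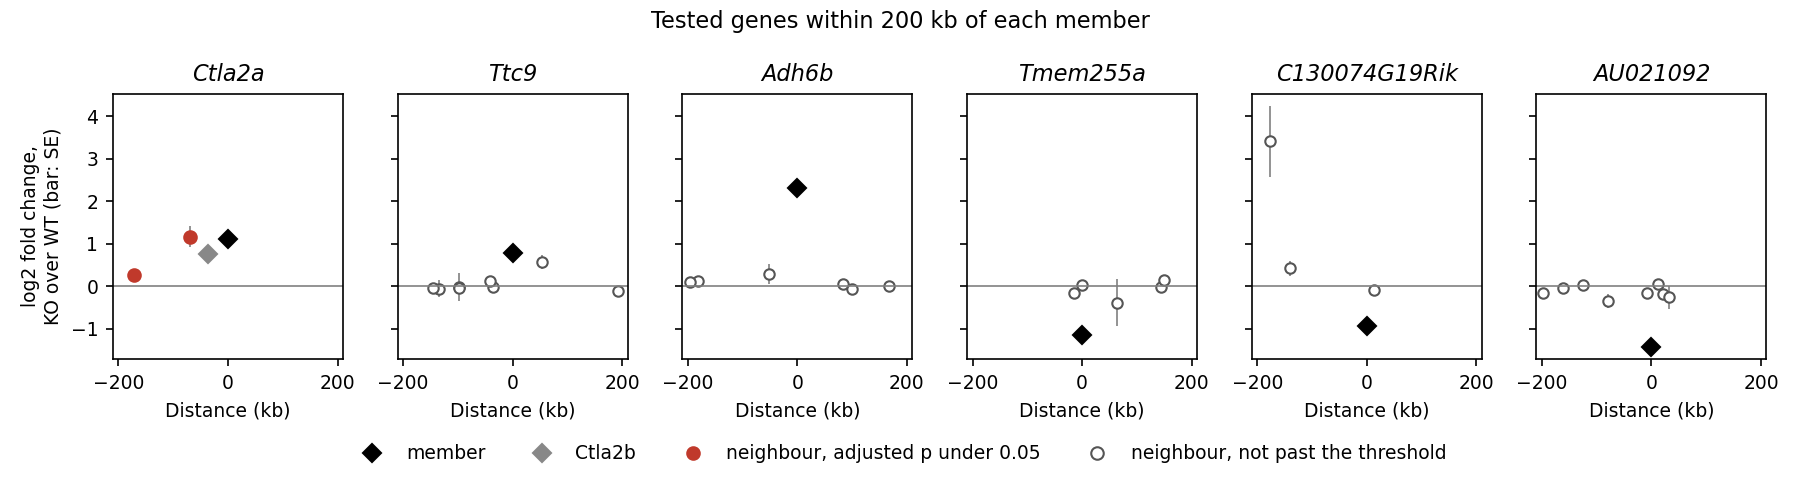
Log2 fold change of KO over WT averaged over stages (y axis, bars of 1 SE) of tested genes within 200 kb of each of 6 genes, against distance from that gene in kb (x axis; negative values are lower coordinates). Ctla2b is drawn in the Ctla2a panel; Ctsj, with a group at 0, is not drawn, and the filled red points, 4930486L24Rik and Dapk1, are the 2 neighbours past the threshold.

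Genes with the most similar patterns were ranked by the root mean square difference of mean-centred log2 CPM over the 12 libraries, among 12954 genes that averaged 1 CPM or more. The measure is a description and shares the libraries that chose the 7 genes. For *Ctla2a* they were *Lgals9*, a galectin gene (0.24), *Bst2*, the gene of the virus-tethering protein tetherin (0.26), and *Cth*, a gene of cysteine synthesis (0.28). The *Ctla2b* pattern was also 0.22 from that of *Ctla2a*. For *Ctla2b* the nearest were *Gbp10*, a guanylate-binding protein gene (0.19), *Parp10* (0.20) and *Pros1*, which encodes the anticoagulant protein S (0.20). For *Ttc9* they were *Tnfaip2* (0.16), the stress kinase gene *Mapk11* (0.18) and *Plk3* (0.20). For comparison, the SD of the log2 level over the 12 libraries was 0.58 for *Ctla2a*, 0.43 for *Ctla2b* and 0.45 for *Ttc9*.

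Among the genes lower in KO hearts, those nearest to *Tmem255a* were the collagen gene *Col15a1* (0.25), the interleukin-33 receptor gene *Il1rl1* (0.25) and *Lurap1l* (0.26). For *C130074G19Rik* they were *Tcp11l1* (0.19), *Lurap1l* (0.22) and *Mfng*, a fringe glycosyltransferase gene (0.22). For *AU021092* they were the Eph receptor gene *Ephb1* (0.21), *Lurap1l* (0.31) and the apelin receptor gene *Aplnr* (0.32). *Lurap1l* was thus among the 3 nearest of all 3 of these genes, and its own log2 fold change of KO over WT was -1.07 at E13.5 and -0.88 at E14.5. *Tcp11l1* and *Aplnr* lie on the chromosome of *Ino80*, 14.7 Mb and 34.2 Mb from it.

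*Adh6b* had no such close match. Its nearest genes were *Zfp365* (0.81), *Fgf23*, a phosphate-regulating hormone gene (0.85), and *Eda2r*, a receptor gene of the tumour necrosis factor family (0.87), against an SD of 1.42 for *Adh6b* itself. *Eda2r* had a log2 fold change of KO over WT of 1.32 at E13.5 and 1.86 at E14.5, and *Fgf23* one of 0.54 at E13.5 and 2.36 at E14.5.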

How the data were processed

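The table deposited by the authors gives 1 unnormalized whole-number count per gene symbol and library. Per the submitters' processing notes the tools included STAR 2.5.3a, featureCounts, DESeq2 and DESeq with build GRCm38, listed without role or order. Strand, multi-mapping settings and annotation release are not given in the sources used here. Every column was mapped to a sample (0 columns left over), and no 2 libraries of a group were copies.

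The analysis used edgeR 4.0.16 in R 4.3.3. The filter filterByExpr left 20691 genes, TMM scaled the libraries, and 1 robust quasi-likelihood model with a mean for each of the 4 groups was fitted (common biological coefficient of variation 17.1%, 8 residual degrees of freedom). P-values of two-sided F-tests were adjusted over all genes (Benjamini-Hochberg), with a threshold of 0.05. P-values set a difference against the spread between embryos within groups. At E13.5 that spread comes from 1 litter, so it holds no variation between litters there. SE, an approximation, is the size of the log2 fold change over the root of its F statistic. Gene positions are from GENCODE M21 on GRCm38, and promoters from RefSeq. Levels per kb use the exonic length of that GENCODE annotation, joined over all transcripts of a gene, whichever of them were expressed. Log2 levels used a prior count of 2.

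The genes, lists, alternatives and naming rule were chosen with earlier results of these data known. Named were the 7 genes, the 3 genes most like each of them in pattern (leaving out clone-based and predicted symbols), called relatives and 6 fixed relatives, and the nearest tested neighbour on each side. Y-linked transcripts were called present when 4 genes summed to at least 10 CPM. Alternatives were DESeq2 1.42.0, RLE size factors, no low-count filter, litter as a block, a Y-linked covariate, leaving out each library in turn, leaving out both KO libraries that stood apart (replicate 5 at E13.5, replicate 2 at E14.5) and leaving out litter 3. Litter pairing comes from the labels.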

Additional observations from a re-analysis of the deposited data

How the results depend on the processing

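The genes described kept the direction of KO over WT under all 19 alternatives, with averaged log2 fold changes of 1.05 to 1.19 for Ctla2a, 0.68 to 0.87 for Ctla2b, 0.69 to 0.85 for Ttc9, 2.09 to 2.55 for Adh6b, -1.24 to -1.07 for Tmem255a, -0.97 to -0.92 for C130074G19Rik and -1.56 to -1.37 for AU021092. The same libraries chose the genes by this direction, so nothing is read from its being kept. The number called for stage was 2 to 3 under the same alternatives. The stage calls of Tmem255a and C130074G19Rik held in all 19, with adjusted p of at most 0.00344 and 0.0118. The stage log2 fold changes near 0 changed sign in places. Without the 2 KO libraries that stood apart, Ctla2a was at -0.05 and Ttc9 at -0.03, and with the Y-linked covariate Ttc9 was at -0.02. When each library was left out in turn, Ctla2a ranged between -0.03 and 0.11 and Ttc9 between -0.06 and 0.05 (0.09 without E14.5 WT replicate 7.2). Leaving out litter 3, or using the litter block, moved the Adh6b stage value to -0.58. Among other genes, KO over WT for Alg1 was -0.06 and for Med6 0.02 without litter 3. With each library left out, Alg1 ranged between 0 and 0.10, Med6 between -0.06 and 0.01, Atp1b4 between -0.57 and 0.30 (-0.66 without E14.5 WT replicate 7.2), and Ttc9c between -0.02 and 0.07. Counts of genes over the whole table moved more. In KO against WT averaged over stages, 293 genes passed, against 926 with DESeq2, 63 without the 2 KO libraries and 125 to 483 with each library left out. At E13.5, 22 passed, against 310 with DESeq2, 40 with no filter, 9 with the Y-linked covariate, 71 without litter 3 and 2 to 69 with each library left out. At E14.5, 46 passed, against 348 with DESeq2, 77 with no filter, 10 without the 2 KO libraries, 10 without E14.5 WT replicate 7.2 and 13 to 107 with each other library left out. By stage 3557 passed, against 2294 without the 2 KO libraries, 2216 without litter 3, 2299 without E14.5 WT replicate 7.2 and 2368 to 3681 with each other library left out. With litter as a replicate block 60 genes passed at E13.5, 92 at E14.5 and 1684 by stage. Genotypes are then compared within litters, whereas a stage value sets litter 1 against litter 2. Of the relatives 1 passed, against 2 with DESeq2, 0 with the litter block, 0 without the 2 KO libraries, 0 without litter 3 and 0 to 1 with each library left out. The cause of these shifts was not tested. The 4 groups of 3 embryos limit the precision, and AU021092, Cst6, Tmem255b and Ctsj rest on few counts.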
